A study of Mus musculus with 3 samples.

Results

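Hepatic expression of 9 cytochrome P450 genes of the Cyp2c and Cyp3a subfamilies and of Nr1i2 was examined in single-cell RNA sequencing of mouse liver. The P450 genes were Cyp2c29, Cyp2c37, Cyp2c38, Cyp2c50, Cyp2c54, Cyp2c70, Cyp3a11, Cyp3a13 and Cyp3a25. These 10 genes were taken by symbol from the 55357 genes in the files, and each symbol matched 1 gene. There were 3 libraries, and each pooled cells of 2 male wild-type C57BL/6J mice that were 8 weeks old when the study began. The control library (CON) came from untreated mice. The HFD library came from mice fed a diet with 60% of its calories from fat for 4 months. The CCL4 library came from mice kept on chow for 3 months and then given 0.1 mL of 10% CCl4, a hepatotoxic solvent that is itself activated by P450 enzymes, by intraperitoneal injection 2 times per week for 4 weeks. Hepatocytes and nonparenchymal cells had been mixed 1:1 before loading. With 1 library per group and pooled mice, no test between groups was possible. Ratios are therefore given with 95% intervals that cover counting error only and say nothing of the spread between mice.

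Cytochrome P450 enzymes are haem proteins of the endoplasmic reticulum that oxidise drugs, steroids, fatty acids and bile acids. Enzymes of the CYP2C subfamily oxidise many drugs and convert arachidonic acid to epoxides, and those of the CYP3A subfamily oxidise a wide range of drugs, steroids and bile acids. In mice, CYP2C70 is known for the hydroxylation that yields muricholic acids. Nr1i2 encodes the pregnane X receptor (PXR), a nuclear receptor that binds many foreign compounds and bile acids and switches on Cyp3a11 and a set of conjugating enzymes and transporters. In the liver lobule, blood flows from the portal tract to the central vein, and many P450 genes are known to be transcribed mainly by the pericentral hepatocytes, whereas urea synthesis and gluconeogenesis are strongest in periportal cells.

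Hepatocytes were barcodes in hepatocyte-like clusters with 3 to 30% mitochondrial unique molecular identifiers (UMIs) and no UMI of Ptprc, which marks leukocytes. There were 1225 in the control, 836 in the HFD and 2354 in the CCL4 library, with medians of 8286, 3576 and 3117 UMIs per cell. All 15 hepatocyte markers were detected in each library, whereas the 12 T cell markers summed to between 11.85 and 17.05 CPM, the UMIs of a gene per 1000000 UMIs, in these cells. Not every other list was as low: the monocyte/macrophage, plasma cell and cholangiocyte lists summed to 1855, 1114 and 440 CPM in control hepatocytes. The hepatocytes of each library came almost wholly from a cluster of their own, with 98.3% of control, 97.5% of HFD and 93.5% of CCL4 hepatocytes in 1 cluster each, so that library and treatment cannot be told apart. Between 36 and 52 barcodes were shared by any pair of libraries. T cell-like cells of the same libraries (1746 control, 2139 HFD and 2000 CCL4 cells), which should lack these genes, served as a guide to the level that RNA free in the suspension can give. Their median depths were 2380, 2214 and 2019 UMIs, below those of the hepatocytes. A given number of free UMIs makes up a larger share of a shallower cell. The T cell-like CPM can therefore lie above the free RNA level of the hepatocytes, by an amount that can differ between libraries and was not corrected for. The 15 hepatocyte markers summed to 106333, 114630 and 155979 CPM in control, HFD and CCL4 hepatocytes. In T cell-like cells they summed to 28002, 74564 and 122121 CPM. Of these markers 14, 5 and 2 were over 2-fold above the T cell-like level, so their detection alone does not set hepatocytes apart. The summed acute-phase and stress list fixed for this work made up 11.3% of the hepatocyte UMIs in the control, 2.99% in the HFD and 2.66% in the CCL4 library, and 20 of its 21 tested genes were at least 2-fold lower in HFD and in CCL4 than in control hepatocytes. With the levels rescaled outside this list, an alternative added after the data had been seen, the counts of members given below did not change, and Cyp3a11 had ratios of 1.76 for HFD and 0.0944 for CCL4 against control. Other ways in which it could bear on the differences were not tested. In summed counts, fewer cells of a kind and less RNA per cell cannot be told apart.

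The promoters of 4 members are shown because they represent the patterns found: Cyp3a11 and Cyp3a25, neighbours that lay on opposite sides of the control level after CCl4, and Cyp2c29 and Cyp2c70, members of 1 gene cluster of which the first was strongly pericentral and the second nearly level across the lobule. Each sequence runs 5′ to 3′ on the strand of the gene, from 250 bases before to 50 bases from the RefSeq start site onwards, in GRCm38.p6. They lie at chr5:145879805-145880104 (minus strand), chr5:146009568-146009867 (minus), chr19:39286835-39287134 (plus) and chr19:40187237-40187536 (minus). Capitals mark the hexamers AGTTCA and AGGTCA, of the kind that nuclear receptors such as PXR bind, read on both strands, so that TGAACT and TGACCT are the same hexamers on the other strand.
Cyp3a11: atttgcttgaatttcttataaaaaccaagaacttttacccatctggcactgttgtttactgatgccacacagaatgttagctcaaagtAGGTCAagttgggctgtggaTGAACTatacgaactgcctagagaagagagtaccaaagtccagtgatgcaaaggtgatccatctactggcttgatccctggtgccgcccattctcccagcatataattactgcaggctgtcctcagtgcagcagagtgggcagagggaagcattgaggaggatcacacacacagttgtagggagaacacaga
Cyp3a25: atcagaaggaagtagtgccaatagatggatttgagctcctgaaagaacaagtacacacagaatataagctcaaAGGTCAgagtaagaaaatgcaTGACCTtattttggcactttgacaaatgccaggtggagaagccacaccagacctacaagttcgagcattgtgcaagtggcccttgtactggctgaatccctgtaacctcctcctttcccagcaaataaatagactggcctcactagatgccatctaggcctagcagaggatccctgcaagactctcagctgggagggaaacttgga
Cyp2c29: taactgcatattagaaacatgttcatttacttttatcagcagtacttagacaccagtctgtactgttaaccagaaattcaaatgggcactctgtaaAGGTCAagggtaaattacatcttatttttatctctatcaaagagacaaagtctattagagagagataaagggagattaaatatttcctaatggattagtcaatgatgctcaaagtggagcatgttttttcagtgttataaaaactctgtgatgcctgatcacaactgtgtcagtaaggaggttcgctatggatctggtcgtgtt
Cyp2c70: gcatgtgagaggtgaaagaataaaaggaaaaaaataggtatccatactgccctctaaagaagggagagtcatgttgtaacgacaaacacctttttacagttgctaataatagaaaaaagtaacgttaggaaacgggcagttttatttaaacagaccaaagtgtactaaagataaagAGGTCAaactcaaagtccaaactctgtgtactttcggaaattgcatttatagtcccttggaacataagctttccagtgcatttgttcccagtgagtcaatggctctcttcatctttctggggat
The Cyp3a11 window held AGGTCA on the gene's strand with its first base at -162 and AGTTCA on the other strand at -142, counted from the start site. In Cyp3a25, AGGTCA was found on both strands, at -177 and -156. The windows of Cyp2c29 and Cyp2c70 each held a single AGGTCA, at -154 and -74. Cyp2c50 had AGTTCA at -35, and none of these letters was in the windows of Cyp2c37, Cyp2c38, Cyp3a13 or Nr1i2, while Cyp2c54 had no entry in the promoter table. Of all 32851 mouse promoter entries of this length, 27.7% held at least 1 of the hexamers, 13.99% AGTTCA and 16.26% AGGTCA. The matches describe the letters only.

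The Cyp2c members lie together on chromosome 19 of GRCm38 (GENCODE M21), from Cyp2c29 at chr19:39269405-39330713 (plus strand) and Cyp2c38 at chr19:39389556-39463075 (minus) to Cyp2c37 at chr19:39992424-40012243 (plus), Cyp2c54 at chr19:40037940-40073827 (minus), Cyp2c50 at chr19:40089688-40113950 (plus) and Cyp2c70 at chr19:40153353-40187333 (minus). Cyp3a11 at chr5:145854426-145879964 and Cyp3a25 at chr5:145977194-146009618 are close neighbours on the minus strand, whereas Cyp3a13 lies apart at chr5:137892932-137921619. Nr1i2 is at chr16:38248323-38294824 on the minus strand. The Cyp2c29 gene model overlaps the pseudogene Cyp2c53-ps on its strand, and Cyp3a13 overlaps Gm15502. Close paralogs can share reads. Of all 90-base windows of the annotated transcripts, 9.31% in Cyp2c54, 6.90% in Cyp2c50 and 6.74% in Cyp2c37 were identical to a window of another of these 3 genes, and 8.66% in Cyp3a25 to Cyp3a59, so that these values carry some uncertainty. The share was at most 1.685% in the other members and 0 in Cyp2c70, Cyp3a13 and Nr1i2.

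In control hepatocytes the members spanned a wide range of levels. Since each UMI tags 1 end of a molecule, levels were compared between genes without division by length. Cyp3a11, the major CYP3A enzyme of mouse liver, was highest at 1043 CPM (interval 1024 to 1062). It was followed by Cyp2c29 at 756 (740 to 773), Cyp2c50 at 374 (363 to 386) and Cyp2c70 at 360 (349 to 372) CPM. The last pair had overlapping intervals, whereas Cyp3a13 at 263, Cyp3a25 at 226, Cyp2c54 at 185 and Cyp2c37 at 164 CPM each lay apart from its neighbours. Cyp2c38 at 19.1 (16.6 to 21.9) and Nr1i2 at 16.8 (14.4 to 19.4) CPM were lowest and overlapped. The receptor gene was thus measured by only 181 UMIs, against 11262 for Cyp3a11. In the HFD library the order began with Cyp3a11, Cyp2c29, Cyp2c50 and Cyp3a25. In the CCL4 library Cyp3a25, Cyp2c70 and Cyp3a13 led, and Cyp3a11 at 108 (101 to 115) and Cyp2c29 at 107 (100.3 to 114) CPM overlapped in the middle of the order.

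**Figure D1:**
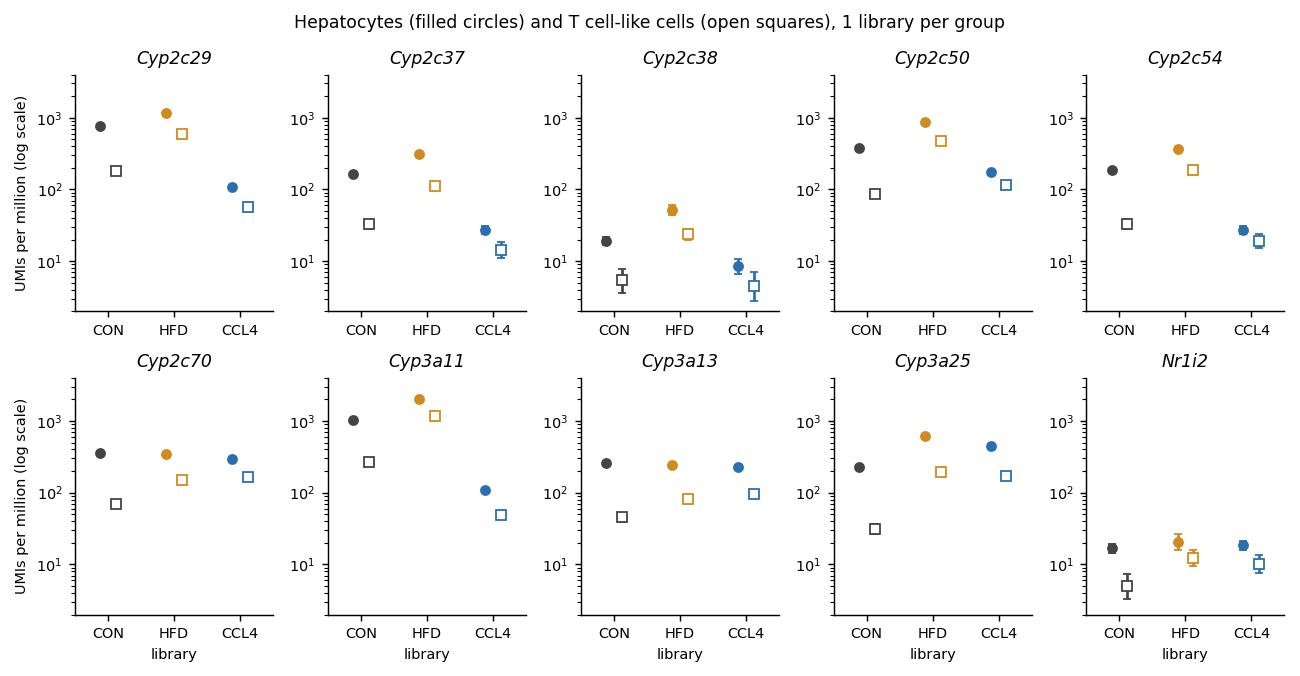
Levels of the 10 genes in CPM (log scale) in hepatocytes (filled circles) and T cell-like cells (open squares) of the CON, HFD and CCL4 libraries, with exact 95% Poisson intervals for counting error only. Cyp3a11 stood at 1043, 2009 and 108 CPM in hepatocytes, and the T cell-like level lay below the hepatocyte level for every gene in every library.

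Free RNA of these genes was abundant. In T cell-like cells Cyp3a11 stood at 266 CPM in the control, 1153 in the HFD and 49.2 in the CCL4 library, and after thinning each cell to 1000 UMIs, 24.5%, 68.1% and 4.82% of T cell-like cells had a Cyp3a11 UMI, against 54.9%, 71.4% and 7.085% of hepatocytes. Without thinning the shares were 50.0%, 92.0% and 10.25% of T cell-like cells and 86.8%, 91.15% and 13.8% of hepatocytes, with median depths of 2380, 2214 and 2019 UMIs in T cell-like cells. The HFD hepatocyte share was thus below that of cells that should lack the gene without thinning and close above it with thinning, and is not read as expression. Hepatocyte CPM exceeded the T cell-like CPM for all 10 members in every library, by 3.33- to 7.26-fold in the control, 1.69- to 3.10-fold in HFD and 1.41- to 2.65-fold in CCL4. The lower bound of this ratio was above 2 for 10, 4 and 2 members. The share of all genes past this bound is not given here, so these counts are not set against genes in general. How far the difference in depth bears on these counts was not tested. Over 15 hepatocyte marker genes the median ratio was 3.96, 1.65 and 1.47, against 4.68, 2.10 and 1.86 over the members. In the other named cell classes of at least 50 cells, Cyp3a11 ranged from 93.3 to 384 CPM in the control, 547 to 1266 in HFD and 32.4 to 90.8 in CCL4, below the hepatocytes in every class. All members were highest in hepatocytes in the control and HFD libraries, but in CCL4 another class stood above the hepatocytes for 5 of them. These were Cyp2c37 (granulocyte-like, 31.2 against 27.5 CPM), Cyp2c38 (B cell-like, 8.85 against 8.50), Cyp2c54 (erythroid-like, 36.5 against 27.35), Cyp2c70 (granulocyte-like, 306 against 295) and Nr1i2 (endothelial-like, 21.4 against 18.4). The class values rested on 11, 20, 14, 108 and 12 UMIs, and the interval of each included the hepatocyte level. The ratio of Cyp3a11 to Cyp2c29 UMIs ranged over these classes from 1.33 to 2.10 in the control, 1.83 to 2.24 in HFD and 0.704 to 1.09 in CCL4, and was 1.38, 1.70 and 1.01 in the hepatocytes.

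The question of the first comparison was how the P450 genes stand after a high-fat diet. Of the 10 members, 3 were at least 2-fold higher in HFD than in control hepatocytes after 5 CPM were added to both levels, and none was lower, where 4.58% of all 7103 genes tested were higher and 3.96% lower. Cyp3a25 stood at 226 CPM in control and 610 in HFD hepatocytes, 2.70-fold higher (interval 2.54 to 2.86). Cyp2c50, an epoxygenase, stood at 374 and 884 CPM, 2.36-fold higher (2.25 to 2.48). Cyp2c38 stood at 19.1 and 51.45 CPM, 2.70-fold higher (2.185 to 3.33). The next members lay just under the limit, with Cyp2c54 at 2.01-fold before the 5 CPM were added, Cyp2c37 at 1.94-fold and Cyp3a11 at 1.93-fold (1.87 to 1.99). Cyp2c29 was 1.56-fold higher, at 756 and 1179 CPM. Cyp2c70 (0.949), Cyp3a13 (0.923) and Nr1i2 (1.24) had ratios near 1, with intervals of 0.887 to 1.015, 0.852 to 0.999 and 0.922 to 1.65. The median log2 ratio was 0.94 over the members and 0.11 over all genes tested.

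The T cell-like levels were also higher in HFD than in control, by 1.80- to 6.31-fold, more than in hepatocytes for each member. After the T cell-like CPM were taken off, 1 member, Cyp3a25, stayed at least 2-fold higher with 5 CPM added, at 195 and 413.4 CPM or 2.12-fold, and none was lower, where 14.7% of the 2536 genes then tested were higher and 26.5% lower. The remaining ratio was 1.10 for Cyp3a11, 1.015 for Cyp2c29 and 1.42 for Cyp2c50, while that of Cyp2c38 was 2.04 before the 5 CPM were added. It was below 1 for Cyp2c70 (0.664), Cyp3a13 (0.7405) and Nr1i2 (0.721). The count of members at least 2-fold higher was 7 with a lower limit of 5% mitochondrial UMIs and 7 at a finer clustering of the cells. At the finer clustering 397 of the 1225 control hepatocytes, 346 of them among the most pericentral, lost the hepatocyte name. Only 5 of the 836 HFD hepatocytes did, so that count does not speak for a wider rise in HFD.

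CCl4 was next compared with control. Of the 10 members, 5 were at least 2-fold lower in CCL4 hepatocytes and none was higher, where 5.44% of all 7009 genes tested were lower and 4.88% higher. Cyp3a11 was 9.64-fold lower (9.02 to 10.3), from 1043 to 108 CPM. Cyp2c29, the most abundant of the Cyp2c genes in control liver, was 7.06-fold lower (6.60 to 7.57), from 756 to 107 CPM. Cyp2c54 went from 185 to 27.35 CPM, 6.78-fold lower, and Cyp2c37 from 164 to 27.5 CPM, 5.96-fold lower. Both encode enzymes that oxidise arachidonic acid, as does Cyp2c50, which was 2.16-fold lower (2.04 to 2.296), from 374 to 173 CPM. Cyp2c38 was 2.24-fold lower, from 19.1 to 8.50 CPM, and did not reach the limit once 5 CPM were added. Against these stood Cyp3a25, which was 1.98-fold higher (1.88 to 2.08), at 226 and 447 CPM, just short of the limit. Cyp2c70, at 360 and 295 CPM, and Cyp3a13, at 263 and 231 CPM, had ratios of 0.819 and 0.879. Nr1i2, whose product switches on Cyp3a11, stood at 16.8 and 18.4 CPM, a ratio of 1.10 (0.881 to 1.37). The median log2 ratio was -0.96 over the members and 0.05 over all genes tested. In T cell-like cells Cyp3a11 was 5.41-fold and Cyp2c29 3.09-fold lower in CCL4 than in control, while Cyp3a25 was 5.405-fold and Cyp2c70 2.40-fold higher. With the T cell-like CPM taken off, 7 members were lower and none higher, where 27.5% of the 2690 genes then tested were lower and 20.5% higher. The remaining ratio was 0.0758 for Cyp3a11, 0.0524 for Cyp2c54, 0.1995 for Cyp2c50 and 0.445 for Cyp2c70. It was 0.615 for Cyp3a13, 1.43 for Cyp3a25 and 0.693 for Nr1i2, the last from 11.7 to 8.12 CPM. For Cyp2c54 only 7.97 CPM (2.28 to 13.35) remained in CCL4, so its ratio is loosely bounded. With B cell-like CPM taken off instead, the Nr1i2 ratio was 0.478. At a finer clustering, under which 397 of the 1225 control hepatocytes, 346 of them among the most pericentral, lost the hepatocyte name, 1 member, Cyp3a11, was lower with a ratio of 0.132 and 2 were higher, Cyp2c37 at 2.67-fold and Cyp2c50 at 2.19-fold. Cyp2c38, then under 10 CPM, had a ratio of 5.30, Cyp2c29 of 0.800 and Cyp2c54 of 0.713.

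CCL4 and HFD were also compared directly. Of the 10 members, 6 were at least 2-fold lower in CCL4 and none was higher, where 3.11% of all 7080 genes tested were lower and 1.74% higher. Cyp3a11 was 18.6-fold lower (17.4 to 19.9), Cyp2c54 13.6-fold, Cyp2c37 11.5-fold, Cyp2c29 11.01-fold, Cyp2c38 6.05-fold and Cyp2c50 5.11-fold. Cyp3a25 (0.733), Cyp2c70 (0.863), Nr1i2 (0.885) and Cyp3a13 (0.952) differed less. In T cell-like cells Cyp3a11 was 23.4-fold and Cyp2c29 10.3-fold lower in CCL4 than in HFD. With the T cell-like CPM taken off, 6 members were lower and none higher, where 10.6% and 11.6% of 2464 genes were, and the remaining ratio was 0.0688 for Cyp3a11, 0.0842 for Cyp2c29 and 0.04245 for Cyp2c54. The Cyp2c54 value again rests on 7.97 CPM (2.28 to 13.35) left in CCL4. All 3 comparisons share libraries and are not independent of one another.

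The members divided along the lobule. The hepatocytes of each library were ranked by 14 pericentral against 14 periportal genes, none of them a Cyp2c or Cyp3a gene, and cut into 3 equal groups. In each library the same 6 members were at least 2-fold higher in the pericentral than in the periportal group and none was lower. All genes tested gave 2.93% higher and 2.26% lower in the control, 3.77% and 3.94% in HFD, and 0.833% and 0.345% in CCL4. Cells of 1 library are not replicates, so these are descriptions of each library.

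Cyp2c29 stood in control liver at 17.4 CPM in the periportal, 285 in the middle and 2439 in the pericentral group, a ratio of 140 (113 to 177). In HFD it stood at 139, 802 and 2817 CPM, and in CCL4 at 22.6, 29.95 and 288 CPM, ratios of 20.2 and 12.7. Cyp2c37 had ratios of 154, 39.3 and 9.76 in control, HFD and CCL4, Cyp2c50 of 52.8, 13.15 and 10.3, and Cyp2c54 of 49.3, 12.9 and 10.6. Cyp2c38 had only 3, 11 and 2 UMIs in the periportal groups, and its ratios of 103 (34.7 to 504), 15.6 (8.43 to 31.9) and 39.8 (10.6 to 335) were loosely bounded. These 5 Cyp2c genes shared a steep gradient in every library.

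Cyp3a11 differed from them. In control liver it was present in all 3 groups, at 829, 726 and 1730 CPM, with a pericentral to periportal ratio of 2.09 (2.00 to 2.18). In HFD it stood at 876, 1565 and 3826 CPM, a ratio of 4.37 (4.085 to 4.67). In CCL4 it stood at 22.0, 33.3 and 289 CPM, a ratio of 13.1 (10.2 to 17.1). The gradient of Cyp3a11 was therefore shallowest in control and steepest in CCL4, with counting intervals that did not overlap. Cyp2c29, Cyp2c37, Cyp2c50 and Cyp2c54 had their steepest gradient in control. Periportal Cyp3a11 lay below the T cell-like level in HFD (876 against 1153 CPM) and CCL4 (22.0 against 49.2), but not in control (829 against 266). Periportal levels of these Cyp2c genes lay below it in every library. The part of free RNA and depth in these orders was not tested.

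The other 4 members differed by less than 2-fold between the ends of the lobule. The pericentral to periportal ratio of Cyp2c70 was 1.247, 1.08 and 1.30 in control, HFD and CCL4, that of Cyp3a25 1.04, 0.985 and 1.23, and that of Nr1i2 1.02, 0.930 and 1.04. Cyp3a13 was lower in the pericentral group of HFD, at 282 and 170 CPM in the periportal and pericentral groups, a ratio of 0.603 (0.500 to 0.725) that did not reach 2-fold, against 1.03 in control and 0.840 in CCL4. Cyp3a25, a close genomic neighbour of Cyp3a11, thus ran nearly level where Cyp3a11 did not.

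**Figure D2:**
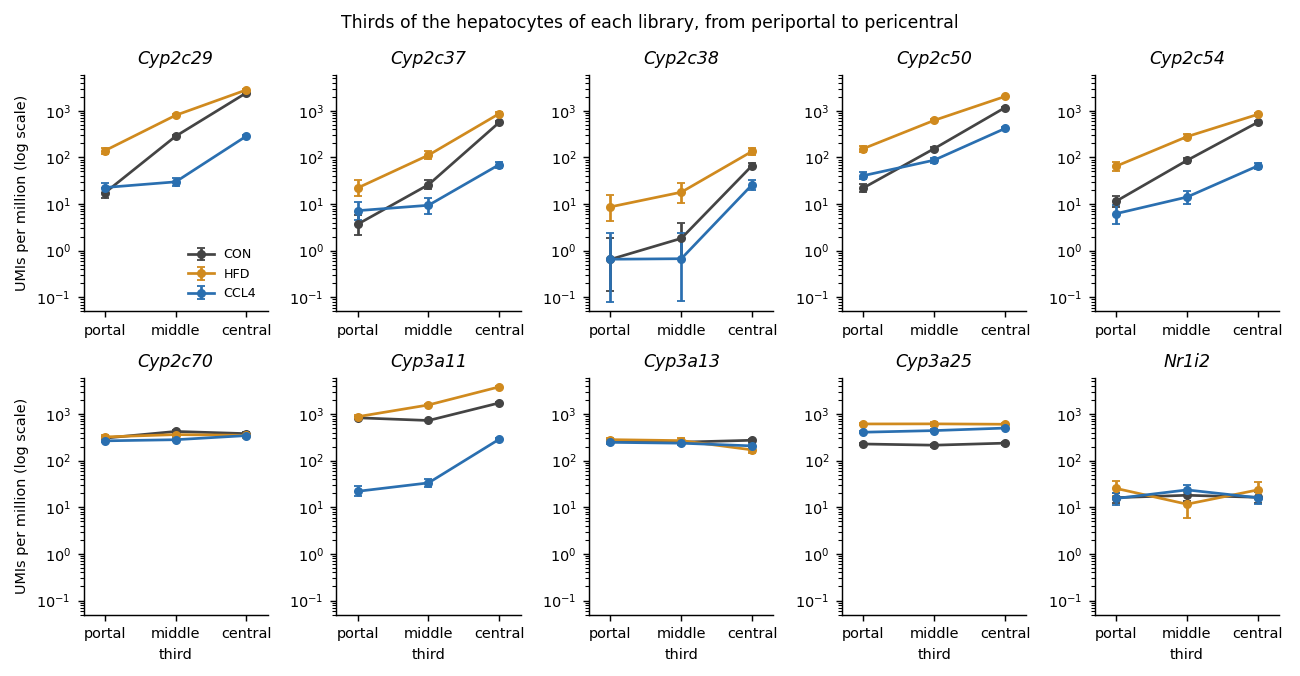
Levels of the 10 genes in CPM (log scale) in 3 equal groups of the hepatocytes of each library, ranked from periportal to pericentral, with exact 95% Poisson intervals. Cyp2c29, Cyp2c37, Cyp2c38, Cyp2c50 and Cyp2c54 climb toward the central vein in each library, Cyp3a11 stands at 22.0 CPM in the periportal group of CCL4, and Cyp2c70, Cyp3a13, Cyp3a25 and Nr1i2 run nearly level.

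The periportal hepatocytes were set against the free RNA level. In control liver the periportal hepatocytes held 17.4 CPM of Cyp2c29 and the T cell-like cells 178 CPM, 10.3-fold more (8.155 to 13.1). The same 5 pericentral Cyp2c genes were lower in periportal hepatocytes than in T cell-like cells of the same library in control, HFD and CCL4, by 1.99- to 10.3-fold. Taking off the T cell-like level thus removed more than the whole periportal count of these genes. Cyp3a11 was 3.115-fold higher in periportal hepatocytes than in T cell-like cells of the control, but 1.32-fold lower in HFD and 2.24-fold lower in CCL4. Periportal cells had more UMIs than pericentral cells, with medians of 10974 and 6746 in control, 4426 and 3528 in HFD and 3392 and 2726 in CCL4. The pericentral gene list summed to 2845 CPM in control, 7021 in HFD and 929.5 in CCL4 hepatocytes, and the periportal list to 7818, 9814 and 18261 CPM. In CCL4 the groups were less distinct: Cyp2f2, a periportal P450, stood at 1429 and 1057 CPM in the periportal and pericentral groups, against 1232 and 57.9 CPM in control. A group of one library thus need not be the same stretch of the lobule as that of another. These values cannot tell a different stretch from changed expression along the same one. The part of zone make-up in the differences between libraries was not tested.

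Libraries were then compared group by group. Against control, CCL4 had 6 members at least 2-fold lower and 1 higher in the pericentral group, where 5.47% of genes tested were lower and 5.15% higher. In the middle group 4 of the 9 members that reached 10 CPM were lower and 1 higher, where 5.82% and 5.73% of genes were. In the periportal group 1 of the 8 that reached 10 CPM was lower and none higher, where 5.31% and 6.45% of genes were. The single member lower in the periportal group was Cyp3a11, which was 37.7-fold lower (29.6 to 48.8), at 829 and 22.0 CPM. It was 21.8-fold lower in the middle and 5.99-fold lower in the pericentral group. Cyp2c29 was 8.46-fold lower in the pericentral and 9.52-fold lower in the middle group. In the periportal group its ratio was 1.30 (0.930 to 1.82), at 17.4 and 22.6 CPM, levels below those of T cell-like cells (178 and 57.7 CPM), where free RNA and transcription cannot be told apart. The CCL4 periportal and middle levels of Cyp3a11 were below its T cell-like level too, at 22.0 and 33.3 against 49.2 CPM. In CCL4 the middle levels of Cyp2c29 (29.95 against 57.7 CPM), Cyp2c37 (9.42 against 14.4), Cyp2c50 (87.5 against 115.6) and Cyp2c54 (14.1 against 19.4) also lay below theirs. Free RNA and transcription cannot be told apart at these levels either. Cyp2c54 and Cyp2c37 were 8.61-fold and 8.06-fold lower in the pericentral group, and Cyp2c50 and Cyp2c38 2.80-fold and 2.57-fold. Cyp3a25 was the member at least 2-fold higher in the middle and pericentral groups, 2.06-fold and 2.105-fold, and was 1.79-fold higher in the periportal group.

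Against control, HFD had 5 of 9 tested members at least 2-fold higher in the periportal group. In the middle group it was 7 of 10 and in the pericentral group 2 of 10, and none was lower in any. The shares of genes tested that were higher and lower were 6.04% and 4.09% in the periportal, 6.6% and 4.99% in the middle and 4.69% and 4.92% in the pericentral group. Cyp2c29 was 8.02-fold higher in the periportal, 2.81-fold in the middle and 1.155-fold in the pericentral group, where it stood at 2439 and 2817 CPM. Cyp3a11 showed the opposite order, 1.06-fold (0.987 to 1.13), 2.155-fold and 2.21-fold (2.12 to 2.31). Cyp3a25 was higher in every group, by 2.69-, 2.87- and 2.54-fold. The periportal levels of the pericentral Cyp2c genes in HFD, such as 139 CPM of Cyp2c29, lay below the T cell-like levels of that library. So did periportal Cyp3a11 (876 against 1153 CPM) and middle Cyp2c38 (18.0 against 23.6 CPM). Middle Cyp2c37 was level with its T cell-like value (112.1 against 112.2 CPM). At these levels free RNA cannot be told apart from transcription.

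**Figure D3:**
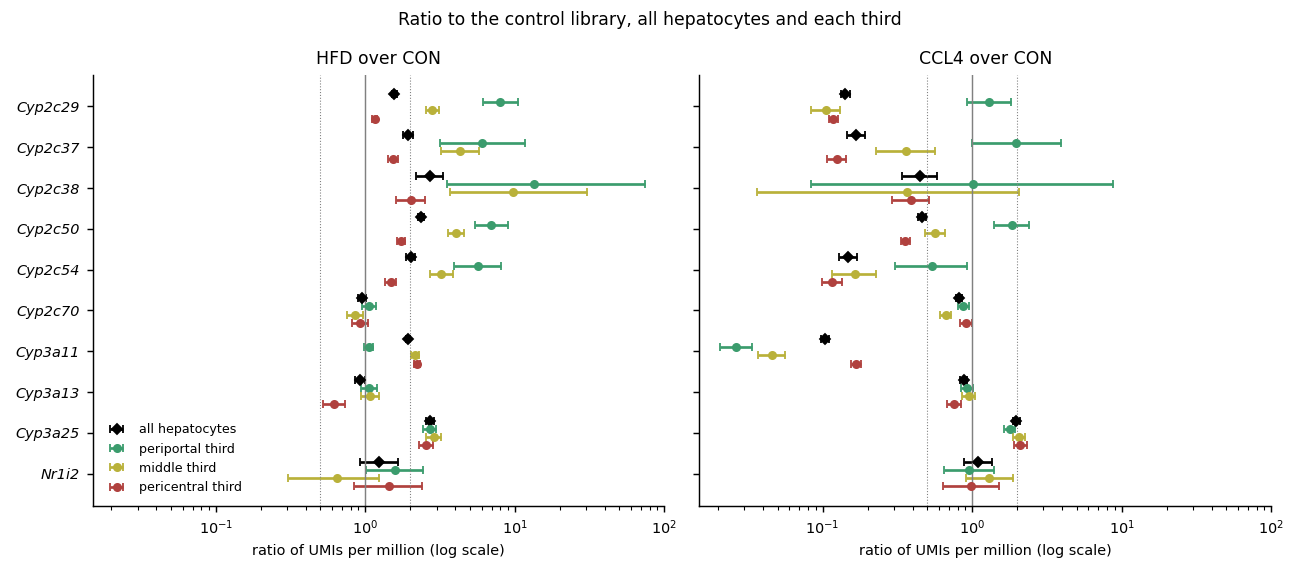
Ratio of CPM to the control library (log scale) for each gene, in all hepatocytes (black diamonds) and in the periportal, middle and pericentral groups (coloured circles), for HFD (left) and CCL4 (right), with exact conditional 95% intervals. Dotted lines mark 2-fold. The Cyp3a11 ratio with CCL4 is lowest in the periportal group, 37.7-fold below control, while Cyp3a25 lies above 1 in every group.

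A small set of CCL4 cells stood apart. Of the CCL4 hepatocytes, 79 fell into the cluster that held most HFD hepatocytes, 77 of them ranked in the pericentral group, and 1 shared a barcode with another library. They held 3.575% of the CCL4 hepatocyte UMIs but 33.6% of those of Cyp3a11, 29.1% of Cyp2c29 and 40.5% of Cyp2c38. In them Cyp3a11 stood at 1016 CPM, Cyp2c29 at 871, Cyp2c50 at 865 and Cyp2c54 at 99.6 CPM, whereas Cyp3a25 at 514, Cyp2c70 at 270 and Cyp3a13 at 148 CPM were near or below their level in the other cells. Without these cells Cyp3a11 was 14.0-fold (12.9 to 15.2), Cyp2c29 9.60-fold, Cyp2c38 3.64-fold and Cyp2c50 2.54-fold lower than in control. In the pericentral group they held 314 of 775 Cyp3a11 UMIs, or 40.5%. Without them Cyp3a11 was 8.93-fold lower there than in control (8.12 to 9.85), with a pericentral to periportal ratio in CCL4 of 8.94 (6.89 to 11.75), and Cyp2c29 was 11.5-fold lower with a ratio of 9.35. No control hepatocyte lay in a cluster in which another library had the most cells, so cells were left out of CCL4 only. Leaving out cells rich in these genes lowers their CCL4 levels by construction. Of all 2354 CCL4 hepatocytes, 324, or 13.8% (12.4 to 15.2), had a UMI of Cyp3a11 and 1762, or 74.85%, one of Cyp3a25, against 10.25% and 29.35% of T cell-like cells.

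The make-up of both subfamilies differed between the libraries. Cyp3a11 made up 67.4% (66.7 to 68.1) of all Cyp3a UMIs in control and 69.8% in HFD hepatocytes, but 13.6% (12.8 to 14.4) in CCL4, where Cyp3a25 made up 56.2% (55.0 to 57.4) and Cyp3a13 29.05%. In control Cyp3a25 and Cyp3a13 made up 14.6% and 17.0%. All Cyp3a genes together stood at 1546, 2878 and 795 CPM in control, HFD and CCL4, and the 3 members held 98.8% to 99.4% of them. Among Cyp2c UMIs, Cyp2c29 made up 32.1% in control, 32.0% in HFD and 10.7% in CCL4, while Cyp2c70 made up 15.3%, 9.30% and 29.5%. Cyp2c50 held 15.9%, 24.0% and 17.3%. The sum of all Cyp2c genes stood at 2357, 3678 and 1002 CPM, and the 6 members held 78.9%, 85.5% and 63.7% of it. These sums and shares were not corrected for free RNA. In T cell-like cells Cyp3a11 stood at 266, 1153 and 49.2 CPM and Cyp3a25 at 31.2, 196.6 and 168.5 CPM in control, HFD and CCL4. There Cyp2c29 stood at 178, 592 and 57.7 CPM and Cyp2c70 at 69.2, 148.7 and 165.7 CPM.

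**Figure D4:**
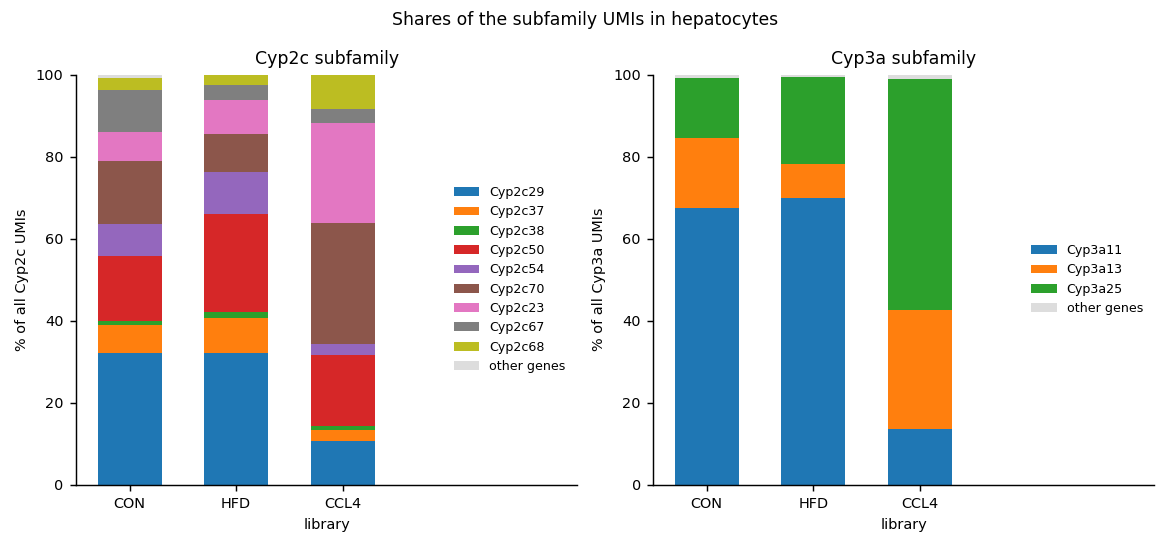
Share of each gene in the summed UMIs of its subfamily in the hepatocytes of each library, in percent, for Cyp2c (left) and Cyp3a (right). Cyp3a11 holds 67.4% of Cyp3a UMIs in CON and 13.6% in CCL4, where Cyp3a25 holds 56.2%, and the Cyp2c29 share is 32.1% and 10.7% in the same libraries.

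The counts that follow for other gene lists read against the shares of all genes tested given above. Those were 4.58% higher and 3.96% lower for HFD against control, 4.88% and 5.44% for CCL4 against control, and 1.74% and 3.11% for CCL4 against HFD. Counts with the T cell-like CPM taken off read against larger shares. For HFD against control these were 14.7% higher and 26.5% lower of 2536 genes. For CCL4 against control they were 20.5% and 27.5% of 2690 genes. Of 15 other Cyp2c and Cyp3a genes, 5 reached 10 CPM against control. In HFD none was at least 2-fold higher and 1 was lower, Cyp2c40, at 10.5 and 2.48 CPM. Cyp2c67 was 1.70-fold lower and Cyp3a59 had a ratio of 1.19. In CCL4 none was higher and 2 were lower. Cyp2c67 went from 240 to 34.1 CPM, 7.05-fold lower, and Cyp2c40 from 10.5 to 0.575 CPM, 18.2-fold lower (7.58 to 57.2). Cyp2c23, an epoxygenase gene also expressed in kidney, stood at 166, 302 and 245 CPM and made up 24.5% of Cyp2c UMIs in CCL4, against 7.035% in control. Cyp2c68 stood at 73.9, 83.7 and 82.6 CPM, with ratios of 1.12 for CCL4 against control and 0.987 against HFD. In CCL4 against HFD 1 of 4 was lower, Cyp2c67, 4.15-fold, while Cyp3a59 had a ratio of 0.549. The medians of the log2 ratios were 0.17, -0.43 and -0.46 in the 3 comparisons, where those of all genes tested were 0.11, 0.05 and -0.05.

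Of 18 other listed target genes of PXR, 12 were tested. In HFD against control 7 were at least 2-fold higher and none lower, with a median log2 ratio of 1.22. The list summed to 2783 CPM in control and 5145 in HFD hepatocytes, and to 1085 and 3804 CPM in T cell-like cells. With the T cell-like CPM taken off, 2 of 10 were higher and 1 lower. Gstm1, a glutathione transferase, went from 450 to 2122 CPM, and Abcc3, an efflux pump for conjugates, from 52.1 to 172 CPM. Aldh1a1 had a ratio of 0.986 and Aldh1a7 of 0.599. In CCL4 against control 3 were higher and 3 lower, with a median of 0.14. With the T cell-like CPM taken off, 2 of 10 were higher and 6 lower. The glutathione transferase gene Gsta2 was 5.99-fold higher, from 5.28 to 31.6 CPM, and Slco1a4, an uptake transporter, 4.68-fold, from 13.1 to 61.1 CPM. Ces2c, a carboxylesterase, was 7.575-fold lower, from 17.4 to 2.298 CPM, and Aldh1a7 2.12-fold lower. In CCL4 against HFD 1 was higher, Slco1a4 at 2.27-fold, and 4 were lower, led by Ces2c at 20.2-fold and Ces2a at 5.31-fold, while Gsta2 had a ratio of 1.38.

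Partners and regulators of P450 genes were examined as a list of 20, all tested. In HFD against control 3 were at least 2-fold higher and 3 lower. In hepatocytes the list summed to 4894 and 5812 CPM, in T cell-like cells to 2534 and 4900 CPM, and with the latter taken off 1 of 19 was higher and 7 were lower. Nr1i3, the gene of the constitutive androstane receptor, a relative of PXR with many of the same targets, went from 18.7 to 75.9 CPM, 4.06-fold higher (3.36 to 4.92), and Cyb5r3, which reduces cytochrome b5, was 2.605-fold higher. Hmox1, which breaks down haem, was 3.30-fold lower, and Cebpb, a transcription factor gene of the acute-phase response, 3.15-fold lower, from 1379 to 438 CPM. In CCL4 against control 1 was higher and 3 lower, and with the T cell-like CPM taken off 1 of 20 was higher and 4 were lower. Nr0b2, a repressor induced by bile acids, was 2.19-fold higher, and Foxa2, at 2.10-fold, fell short of the limit once 5 CPM were added. Cebpb was 2.75-fold lower, from 1379 to 501 CPM, and Ahr, the receptor of dioxin-like compounds, 2.745-fold lower. In CCL4 against HFD 1 was higher, Onecut1 at 3.00-fold, and 1 lower, Nr1i3 at 2.47-fold, while Por, which passes electrons to P450 enzymes, had a ratio of 0.5375 and Hmox1 of 1.46. The medians of the log2 ratios were 0.50, 0.32 and 0.01.

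Of 37 other liver P450 genes, 12 of 30 tested were at least 2-fold higher and 3 lower in HFD than in control, with a median log2 ratio of 0.86. The list summed to 7687 and 16427 CPM in hepatocytes and to 1638 and 7650 CPM in T cell-like cells, and with the latter taken off 9 of 29 were higher and 5 lower. Cyp2a5, a coumarin hydroxylase gene, went from 14.8 to 208 CPM and Cyp7a1, the rate-limiting enzyme of bile acid synthesis, from 9.54 to 108 CPM. Cyp51, of cholesterol synthesis, was 4.13-fold and Cyp26a1, which breaks down retinoic acid, 4.545-fold lower. In CCL4 against control 8 of 31 were higher and 9 lower, with a median of 0.12. With the T cell-like CPM taken off, 6 of 30 were higher and 13 lower. Cyp2b9, a female-predominant gene, went from 0.926 to 98.35 CPM and Cyp7a1 from 9.54 to 91.1 CPM, whereas Cyp4a12a and Cyp4a12b, both male-predominant, were 26.5-fold lower, from 173 to 6.55 CPM, and 129.5-fold lower (50.35 to 476.9), from 59.5 to 0.460 CPM. In CCL4 against HFD 5 of 32 were higher and 13 lower. Cyp2b9 was 15.9-fold and Cyp17a1, of steroid synthesis, 8.46-fold higher. Cyp4a12b, with only 4 UMIs in CCL4, was 549.6-fold lower (213.8 to 2022) and Cyp1a2, an enzyme that oxidises caffeine, 40.95-fold lower.

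Of the acute-phase and stress list, Lcn2, an iron-binding protein of inflammation, was 94.1-fold and the metallothionein gene Mt2 48.0-fold lower in HFD than in control, while Fgb was 2.165-fold lower and Socs3 had a ratio of 0.496. In CCL4 the serum amyloid gene Saa2 was 166-fold lower, from 11560 to 69.6 CPM, and Lcn2 79.5-fold, while Hpx was 2.02-fold lower and Socs3 had a ratio of 0.5455. In CCL4 against HFD 1 of 21 genes was higher, Mt1 at 2.17-fold, and 3 were lower, led by Saa2 at 3.91-fold and Orm2 at 3.80-fold, while Mt2 had a ratio of 1.96.

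Genes with the pattern most like that of Cyp2c29 and Cyp3a11 were found over the 9 groups of library and lobular position, among the 3194 genes that reached 50 CPM somewhere, by Pearson's r of log2(CPM + 5). Cyp2c29 was most like Cyp2c54 (0.989), Sult2a8 (0.977) and Cyp2e1 (0.976), the P450 that activates CCl4. Cyp2e1 is also 1 of the 14 pericentral genes that ranked the groups, so its likeness to Cyp2c29 was partly built in. Cyp3a11 was most like Slc25a1 (0.975), the mitochondrial citrate carrier, Slc25a37 (0.970) and Anxa7 (0.966). Pearson's r takes no account of the size of a change. Over the 9 groups Cyp3a11 ran from 22.0 to 3826 CPM. Slc25a1 ran from 125 to 235, Slc25a37 from 13.1 to 81.5 and Anxa7 from 63.0 to 167 CPM. The groups of 1 library share its mice, depth and free RNA, so the r describe these 9 groups only.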

How the data were processed

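Single-cell 3′ RNA sequencing was made of 3 libraries, CON, HFD and CCL4. The authors deposited whole-number UMI counts per gene and barcode, which had been made with Cell Ranger 7.2.0 per the file headers. The submitters' processing notes name GRCm39 while the study's methods name mm10, so positions are from GRCm38 annotation and depend on gene identifiers only. How barcodes were called is not given in the sources used here. The libraries held 11245, 12984 and 12761 barcodes with 49613255, 34985786 and 34061186 UMIs, and 38, 1 and 0 barcodes above 30% mitochondrial UMIs were left out. Intervals cover counting error only and have a level of 95%.

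After log-normalization to 10000 UMIs in each cell, all libraries were clustered together on 2000 variable genes, without the Cyp2c and Cyp3a genes and Nr1i2, with 30 principal components, 15 neighbours and Leiden resolution 1 (Python 3.11.15, scanpy 1.11.5, igraph 0.11.9, scipy 1.17.1). Clusters were named from marker lists where at least 3 markers were raised at least 1.5-fold. The naming rule was set after the clusters had been seen, in several forms, and its form for libraries clustered alone after the values of these genes had been seen. The hepatocytes were the same before and after that last change. Scrublet marked 2, 1 and 3 barcodes, too few to have worked, so doublets were not removed. Hepatocyte-like barcodes below 3% mitochondrial UMIs, 3666, 5618 and 5325 in CON, HFD and CCL4, were not counted as hepatocytes, and neither were 148, 43 and 84 with a Ptprc UMI.

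UMIs were summed per library and class and given as CPM with exact Poisson intervals. Ratios had exact conditional intervals and shares exact Clopper-Pearson intervals. A gene was counted as higher or lower where the ratio of CPM + 5 was at least 2-fold and it reached 10 CPM on either side. Lobular position was the mean z-score of pericentral minus periportal genes, cut into 3 equal groups per library. With 1 library per group no p-value was computed. All of the 10 genes are named, and of each further list the 2 highest and 2 lowest ratios of CPM + 5 in each comparison. The genes and lists were chosen with earlier results of these data known. The ratio code was tested on simulated data. A planned comparison of protein sequences was not made.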

Additional observations from a re-analysis of the deposited data

Results flagged for a closer look

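Cyp3a11 in basophil-like cells of the CCL4 library stood out among the cell classes outside the comparisons, since its level lay above the T cell-like level that was read as free RNA. It stood at 281.8 CPM (135.1 to 518.2), from 10 UMIs in 14 cells, 5.722 times the T cell-like level of that library (2.705 to 10.73). In the basophil-like cells of the control and HFD libraries the same ratio was 0.763 (94 cells) and 0.808 (31 cells). The CCL4 hepatocytes stood at 108 CPM of Cyp3a11. In the same CCL4 basophil-like cells Cyp3a25 stood at 450.9 CPM, from 16 UMIs, 2.68 times the T cell-like level (1.52 to 4.375). Cyp2c38 stood at 12.4 times (1.40 to 50.9) from only 2 UMIs, and Cyp2c29 at 2.44 times (0.786 to 5.78). Cyp2c70 stood at 0.680 times (0.185 to 1.75) and Cyp3a13 at 0.290 times (0.00733 to 1.625), and Nr1i2 had no UMI. The intervals do not cover the choice of this gene and class among many. Cyp3a11 also lay above the T cell-like level in granulocyte-like (1.84 times, 1.23 to 2.68) and endothelial-like cells (1.52 times, 1.06 to 2.12) of that library.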

How the results depend on the processing

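No paired analysis was possible because each group had 1 library, and for the same reason no library could be left out. Of 183 recomputed counts of members, 168 stayed within 1.5 times the reported count. The count at least 2-fold higher in HFD than in control, reported as 3, was 7 with a lower limit of 5% mitochondrial UMIs, 7 at resolution 2.0, 7 at 1.5-fold, 0 at 3-fold, and 1 with T cell-like or with B cell-like CPM taken off. The count higher in CCL4 than in control, reported as 0, was 1 with the 5% limit, 1 with scaling outside mitochondrial and the 20 most abundant genes, 1 at 1.5-fold and 2 at resolution 2.0. The count lower, reported as 5, was 1 at resolution 2.0. In that setting Cyp2c37 was 2.668-fold and Cyp2c50 2.188-fold higher in CCL4 than in control, and Cyp2c38, under the limit in both, went from a ratio of 0.446 to 5.30, all by construction, since 397 control hepatocytes, 346 of them pericentral, lost the name and 828 remained. In HFD, the count lower in the pericentral group, reported as 0, was 1 with T cell-like CPM taken off and 1 at 1.5-fold. With a lower bound above 1 in place of 2, the members over the free RNA level were 10 in HFD and 10 in CCL4, against 4 and 2. The share of all genes past either bound is not given here. The count of 7 in HFD at resolution 2.0 was set against the same 828 control hepatocytes, short of most of the pericentral ones. For the other changes the cause was not tested. Of 882 recomputed single values, 711 stayed within the counting interval of the reported value, 169 moved outside it and 2 reversed. The 2 were Cyp2c37 and Cyp2c50 in CCL4 against control at resolution 2.0. Other values crossed 1 without being counted as reversed. Nr1i2 stayed on the reported side of 1 in 13 of 16 settings for CCL4 against control and in 14 of 16 for HFD against control. Scaling outside the abundant genes shifted the median log2 ratio of all genes from 0.05 to 0.14 in CCL4 against control. An upper limit of 15% mitochondrial UMIs, leaving out cells in clusters led by another library, and scaling outside the acute-phase list were added after the data had been seen. Depth limits Nr1i2, with 67 UMIs in HFD hepatocytes, and Cyp2c38, with 2 or 3 in the periportal groups of CCL4 and control.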
